A study of Mus musculus with 17 samples.

Results

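The genes of prostaglandin synthesis, breakdown and signalling were followed in colon tissue RNA of mice. The set held 10 genes, taken by symbol from the raw count table of 23719 entries: Ptgs1, Ptgs2, Ptges, Ptgis, Ptgds, Hpgd, Ptger1, Ptger2, Ptger3 and Ptger4. All 10 symbols were present, and 9 of 10 passed the filter on low counts; Ptgds did not and was not tested.

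Male C57BL/6 mice aged 32 to 34 weeks were compared, 9 in the Control group and 8 in the GWI group, a model of Gulf War illness. GWI mice drank water with pyridostigmine bromide, which reversibly blocks the enzyme acetylcholinesterase, at a dose of 2 mg/kg for 7 days. They then recovered for 21 days, and Control mice were given water alone. Tissue was taken at day 30, and each library came from 1 mouse. Library depth, as total counts, was 16744096 to 20741212 for Control libraries and 16293537 to 18389686 for GWI libraries, so depth was similar in both groups. Levels are given in CPM, the count of a gene relative to the size of its library, with library sizes scaled by the trimmed mean of M-values (TMM). A gene was called changed at an adjusted p-value under 0.05 in edgeR's quasi-likelihood test over all 14146 tested genes, and log2 fold changes are GWI against Control.

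Prostaglandins are lipid signals made from arachidonic acid, which phospholipases release from membranes. The cyclooxygenases Ptgs1 and Ptgs2 turn it into prostaglandin H2, from which terminal synthases make prostaglandin E2, D2 or prostacyclin, and Hpgd breaks prostaglandins down. In the gut these signals act on blood flow, muscle tone, secretion and the repair of the epithelium, and prostaglandin E2 acts through the receptors Ptger1 to Ptger4.

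The libraries carried the markers of colon epithelium at high levels, with a summed level of 28464 to 45975 CPM over 11 genes in Control mice and 32771 to 50709 CPM in GWI mice. The most abundant was Car1, an enzyme of colon surface cells. Markers of smooth muscle varied far more. Their summed level over 10 genes, led by Myh11, ran from 3690 CPM in Control mouse 9 to 23923 CPM in Control mouse 6, and from 3658 to 11832 CPM in GWI mice. Some Control libraries stood apart. Small intestine markers summed to 376 CPM in Control mouse 6 and 948 CPM in Control mouse 7, against 55.7 to 124 CPM in the other mice. In Control mouse 9, 19.5% of counts came from mitochondrial genes, against at most 14.2% in the other Control mice and 9.76% in GWI mice. The median share was 10.3% in Control mice and 7.15% in GWI mice, and this difference was not tested.

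Of the 9 tested prostaglandin genes, 1 was lower in GWI colons and 0 were higher. The called gene was Ptgis, the synthase of prostacyclin. Among all tested genes, 26.8% were called, 13.4% higher and 13.5% lower, so the count of called prostaglandin genes was not above the background. Without adjustment, edgeR's test gave a p-value under 0.05 for 1 gene in each direction. No share of all genes is given at this threshold, here or for the lists below, so nothing is read from such counts. The DESeq2 Wald test called 0 higher and 1 lower, where it called 30.5% of all genes it tested. Limma-voom with sample quality weights called 1 higher and 3 lower, where it called 57.2% of all genes, so its count was not above its background either. The median log2 fold change of the 9 genes was −0.44, with 6 of 9 negative, against a median of −0.06 and 55.2% negative over all tested genes.

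**Figure D1:**
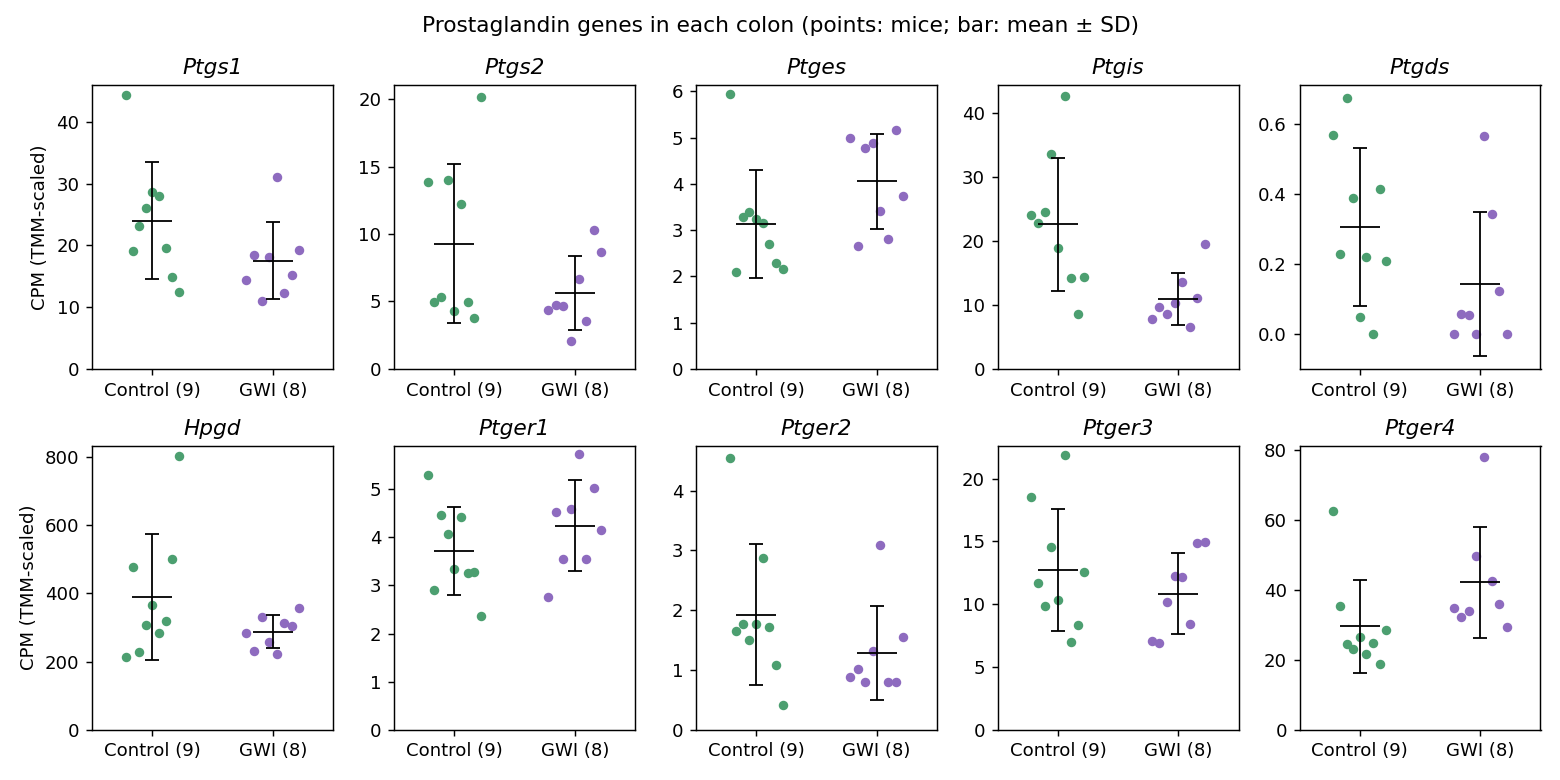
Level of each of the 10 prostaglandin genes in every mouse, in CPM on a linear axis; points are mice (9 Control, 8 GWI), long bars are means and whiskers are 1 SD. All 8 GWI mice lie below the Control median of 22.7 CPM for Ptgis and above the Control median of 24.9 CPM for Ptger4, and the groups overlap for all 10 genes.

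Ptgs1, the cyclooxygenase that most tissues make at a steady level, ranged from 12.5 CPM in Control mouse 9 through a median of 23.1 to 44.3 CPM in Control mouse 1. In GWI mice it ranged from 11.1 CPM through a median of 16.7 to 31.1 CPM in mouse 5. The groups overlapped, and 2 of 8 GWI mice were below every Control mouse. Means were 24.0 ± 9.46 CPM (SD, n = 9) and 17.5 ± 6.24 CPM (SD, n = 8), a log2 fold change of −0.46 with a 95% interval from −0.95 to 0.03 and an adjusted p-value of 0.147 in edgeR. Single mice moved it both ways, to −0.29 (adjusted p = 0.285) without Control mouse 1 and to −0.62 (adjusted p = 0.0419) without GWI mouse 5. Limma-voom gave −0.68 (adjusted p = 0.00125), and a fit with the smooth muscle markers as a covariate turned it to 0.11 (adjusted p = 0.562). The gene lies on chromosome 2 at 36230426 to 36252272, plus strand, in GRCm38 (ENSMUSG00000047250.13).

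Ptgs2, the cyclooxygenase induced by injury and inflammation, varied widely in Control mice, from 3.79 CPM through a median of 5.30 to 20.1 CPM in mouse 9. GWI mice ranged from 2.07 CPM in mouse 4 through a median of 4.68 to 10.3 CPM in mouse 7. The medians lay close together, while 4 Control mice stood above 12 CPM. The log2 fold change was −0.72 with an interval from −1.50 to 0.07 and an adjusted p-value of 0.155 in edgeR. The interval holds values from a clear decrease to a small increase, so the gene was not shown to be alike in both groups. Ptgs2 lies on chromosome 1 at 150100031 to 150108227, plus strand (ENSMUSG00000032487.8).

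The balance of the cyclooxygenases can be read within each mouse from levels per length, in CPM per kilobase of merged exons. The ratio of Ptgs2 to Ptgs1 had a median of 0.220 in Control mice, with a range from 0.126 to 1.37, and a median of 0.251 in GWI mice, with a range from 0.0963 to 0.572. Ptgs1 was therefore the more abundant transcript in all 8 GWI mice and in 8 of 9 Control mice, the exception being Control mouse 9. These ratios were not tested.

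Ptges, the inducible synthase of prostaglandin E2, was low in both groups. It ranged from 2.10 CPM through a median of 3.14 to 5.94 CPM in Control mouse 1, and from 2.66 CPM through a median of 4.26 to 5.16 CPM in GWI mice. With the exception of Control mouse 1, Control mice were at or below 3.40 CPM. The log2 fold change was 0.37, with an interval from −0.07 to 0.81 and an adjusted p-value of 0.192 in edgeR; without Control mouse 1 it was 0.54, with an adjusted p-value of 0.0266, and the lowest value with 1 mouse left out was 0.31. With the smooth muscle covariate it was 0.60 (adjusted p = 0.0641). Per length, the ratio of Ptges to Ptgs2 had a median of 0.500 in Control mice, where it was above 1 in 0 of 9, and of 0.790 in GWI mice, where it was above 1 in 3 of 8. The gene lies on chromosome 2 at 30889471 to 30929863, minus strand (ENSMUSG00000050737.13).

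Ptgis makes prostacyclin, which relaxes smooth muscle and is known from vessel walls and other mesenchymal cells. It ranged from 8.62 CPM in Control mouse 8 through a median of 22.7 to 42.5 CPM in Control mouse 6, and from 6.59 CPM through a median of 10.0 to 19.5 CPM in GWI mouse 8. All 8 GWI mice were below the Control median and 3 of 8 were below every Control mouse, but the groups overlapped. Means were 22.6 ± 10.4 CPM (SD, n = 9) and 10.9 ± 4.07 CPM (SD, n = 8). The log2 fold change was −1.06 with a standard error of 0.27, an interval from −1.63 to −0.48 and an adjusted p-value of 0.0110 in edgeR, a fold of 0.481. The adjusted p-value was 0.00122 by the DESeq2 Wald test. With the shared replicate numbers as a block, edgeR gave −1.07 with an adjusted p-value of 0.0625, so the call was lost. The labels do not say that equal numbers mark paired mice. Same-numbered mice did not deviate together over all tested genes (r from −0.506 to 0.115). The same 16 mice gave −1.11 (adjusted p = 0.00732, edgeR) without the block. The gene lies on chromosome 2 at 167191805 to 167240604, minus strand (ENSMUSG00000017969.13), and shares 156 exon bases with 1110018N20Rik on the other strand.

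Smooth muscle markers moved with Ptgis. Of the 10 listed, 7 were called lower by edgeR, beside 13.5% of all tested genes, and their median log2 fold change was −0.91. At an unadjusted p-value under 0.05, 10 of 10 were lower, and DESeq2 called 9 and limma-voom 10 lower. The count called higher was 0 by each of these. Over all genes, DESeq2 called 2434 of 15179 lower and limma-voom 4180 of 14146. None of the 10 smooth muscle markers was at 0 in all mice. In bulk tissue, fewer cells of a type and less RNA per cell cannot be told apart. The layers of colon wall in each library were not named, so how much muscle each piece held is not known. Control mice alone ran from 3690 to 23923 CPM of summed smooth muscle markers. By histology, the authors found no significant change in the thickness of the colon muscle layers. Over all 17 mice, log2 Ptgis and log2 summed smooth muscle CPM had a Pearson r of 0.871 (permutation p = 3e-05, adjusted 9e-05 over 3 relations) and a Spearman rho of 0.779 (permutation p = 0.00035, adjusted 0.00105). Without Control mice 6 and 1, the farthest from the median, r was 0.822. These pooled values include the group difference, because Ptgis and most of the muscle markers were called lower in GWI mice. The pooled permutation shuffled mice across groups, so its p-values do not measure a relation apart from that difference.

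Within the Control group, r was 0.866 (exact permutation p = 0.00256, adjusted 0.00384) and rho was 0.80 (exact permutation p = 0.0138, adjusted 0.0207). Without Control mice 9 and 8, r was 0.831. Within the GWI group, r was 0.722 (exact permutation p = 0.0476, adjusted 0.0476) and rho was 0.595 (exact permutation p = 0.132, adjusted 0.132). The GWI relation rests on mice 5 and 8, since r was 0.232 without them. With the mean log2 CPM of the smooth muscle markers as a covariate, the log2 fold change of Ptgis was −0.40 and its adjusted p-value 0.101, so the call was lost, in a fit that called 37.6% of all genes. Markers of other cell types of the gut wall are given beside the 13.5% of all tested genes that were called lower: 4 of 6 endothelial markers were called lower (median log2 fold change −0.70), as were 2 of 8 fibroblast markers (median −0.38), 1 of 4 enteric glia markers (median −0.86) and 1 of 8 macrophage markers (median −0.35, 8 of 8 negative). None of the 6 enteric neuron markers was called by edgeR, with a median of −0.58 and 6 of 6 negative. These counts depended on the test, and so did the background: DESeq2 called 2434 of 15179 genes lower and limma-voom 4180 of 14146. Counts lower at an unadjusted p-value under 0.05, by DESeq2 and by limma-voom were 5, 4 and 5 for endothelium, 3, 2 and 6 for fibroblast, 3, 3 and 3 for enteric glia, 3, 2 and 6 for macrophage and 0, 0 and 5 for enteric neuron markers. Adipocyte markers, led by Cfd, went the other way, with 1 of 5 called higher, a median of 1.10 and 0 of 5 negative, and summed to 23.0 to 197 CPM in Control mice and 64.9 to 531 CPM in GWI mice. Summed endothelial markers, led by Pecam1, ranged from 41.6 to 174 CPM in Control mice and from 43.8 to 94.4 CPM in GWI mice, and summed fibroblast markers, led by Col3a1, from 344 to 1030 CPM and from 333 to 888 CPM. Summed enteric glia markers, led by Gfap, ranged from 30.7 to 111 CPM and from 24.9 to 65.5 CPM, and summed enteric neuron markers, led by Uchl1, from 47.2 to 353 CPM and from 63.5 to 239 CPM. Summed macrophage markers, led by C1qa, ranged from 34.4 to 86.2 CPM and from 32.3 to 51.6 CPM. The part of these 6 lists in the Ptgis result was not tested.

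**Figure D2:**
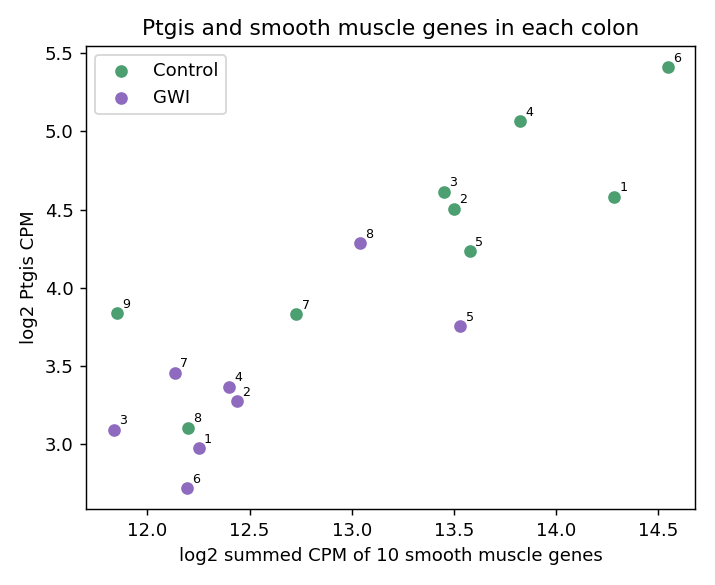
Log2 Ptgis CPM against the log2 summed CPM of 10 smooth muscle genes, 1 point for each of 17 mice, numbered by replicate and coloured by group. Control mouse 6 is highest on both axes, and r was 0.871 over all mice, a pooled value that includes the group difference.

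After the group means were taken off, the tested genes whose log2 CPM varied most like that of Ptgis over the 17 mice were Ntng2 (r = 0.962), Efna5 (r = 0.960) and Twist1 (r = 0.957). These values are descriptive. Ntng2 and Twist1 were called lower in GWI colons, with log2 fold changes of −0.94 and −0.95 and adjusted p-values of 0.0198 and 0.0348 in edgeR, and Efna5 was not called, at −0.79 and 0.0601.

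Ptgds, which makes prostaglandin D2, was near the limit of detection. It had 0 to 13 counts in Control mice and 0 to 9 counts in GWI mice, with means of 0.306 ± 0.225 CPM (SD, n = 9) and 0.143 ± 0.206 CPM (SD, n = 8). Ptgds was not tested by edgeR, because it did not pass the filter. DESeq2 gave a log2 fold change of −1.12 without an adjusted p-value, and nothing is read from it at these counts. Hpgds, the synthase of prostaglandin D2 in blood-derived cells, was better covered and is given with the wider list.

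Hpgd, which inactivates prostaglandins and is abundant in colon epithelium, was the most abundant of the 10 genes. It ranged from 214 CPM in Control mouse 1 through a median of 318 to 804 CPM in Control mouse 9, and from 221 CPM in GWI mouse 5 through a median of 294 to 357 CPM in GWI mouse 8. The GWI mice lay within the Control range and were less spread, with an SD of 48.0 CPM (n = 8) against 185 CPM (n = 9) in Control mice, or 106 CPM without Control mouse 9, and the spreads were not tested. The log2 fold change was −0.44, with an interval from −0.90 to 0.03 and an adjusted p-value of 0.144 in edgeR. Without Control mouse 9 it was −0.23 (adjusted p = 0.322) and by limma-voom −0.22 (adjusted p = 0.186), while with the smooth muscle covariate it was called at −0.75 (adjusted p = 0.00324). Per length, the ratio of Ptges to Hpgd had a median of 0.00378 in Control mice and 0.00638 in GWI mice, so transcripts for breakdown exceeded those for inducible synthesis in all 17 mice. Hpgd lies on chromosome 8 at 56294585 to 56321043, plus strand (ENSMUSG00000031613.9).

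Ptger4 is the receptor through which prostaglandin E2 raises cyclic AMP in many epithelial and immune cells. It ranged from 18.8 CPM in Control mouse 8 through a median of 24.9 to 62.7 CPM in Control mouse 1, and from 29.4 CPM through a median of 35.5 to 78.2 CPM in GWI mouse 5. All 8 GWI mice were above the Control median and 1 was above every Control mouse. Means were 29.6 ± 13.3 CPM (SD, n = 9) and 42.1 ± 15.9 CPM (SD, n = 8), and the log2 fold change was 0.51 with an interval from 0.02 to 1.00. The unadjusted p-value was 0.0408 and the adjusted p-value 0.105 in edgeR, so it was not called. The value turned on single mice. Without Control mouse 1 the log2 fold change was 0.74 and the adjusted p-value 0.00517, and without GWI mouse 5 they were 0.32 and 0.242. Limma-voom called it at 0.59 (adjusted p = 0.00244), and the smooth muscle covariate at 0.80 (adjusted p = 0.0129). The gene lies on chromosome 15 at 5206661 to 5244187, minus strand (ENSMUSG00000039942.15), and shares 1097 exon bases with Ttc33 and Gm15937 on the other strand.

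Ptger2, the other receptor that raises cyclic AMP, was scarce. It ranged from 0.418 CPM through a median of 1.71 to 4.55 CPM in Control mice and from 0.798 CPM through a median of 0.952 to 3.09 CPM in GWI mice, and 7 of 8 GWI mice were below the Control median. The log2 fold change was −0.59, with an interval from −1.37 to 0.19 and an adjusted p-value of 0.237 in edgeR. It was −0.33 (adjusted p = 0.461) without Control mouse 1 and −0.91 (adjusted p = 0.0593) without GWI mouse 5. Limma-voom gave −0.74 (adjusted p = 0.00761), and the smooth muscle covariate turned it to 0.29 (adjusted p = 0.352). These values rest on 6 to 72 counts in Control mice and 13 to 49 counts in GWI mice.

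Ptger3, which lowers cyclic AMP and is found on neurons and smooth muscle, had means of 12.7 ± 4.85 CPM (SD, n = 9) and 10.8 ± 3.23 CPM (SD, n = 8). Its log2 fold change was −0.23 with an interval from −0.70 to 0.24. Ptger1, which signals through calcium, had means of 3.71 ± 0.920 CPM (SD, n = 9) and 4.24 ± 0.944 CPM (SD, n = 8), with a log2 fold change of 0.19 and an interval from −0.18 to 0.56. Neither receptor was called, with adjusted p-values of 0.449 and 0.425 in edgeR, and these p-values do not show that the groups are alike. With 1 mouse left out, Ptger3 ran from −0.31 to −0.10 and Ptger1 from 0.12 to 0.27. With the smooth muscle covariate, Ptger3 turned to 0.13 (adjusted p = 0.666) and Ptger1 was called at 0.49 (adjusted p = 0.0259). With upper-quartile factors Ptger1 was at 0.09 (adjusted p = 0.706). The Ptger1 value is uncertain, because the strand setting of the counting was not given in the sources used here.

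**Figure D3:**
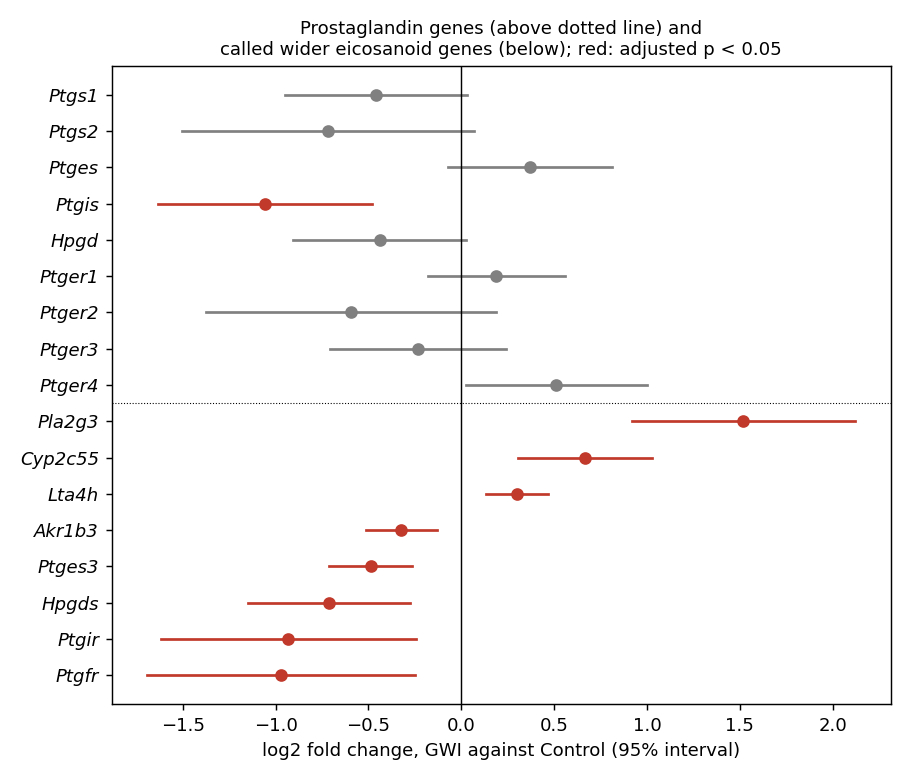
Log2 fold change of GWI against Control with its 95% interval for the 9 tested prostaglandin genes (above the dotted line) and the 8 called genes of the wider eicosanoid list (below it); red marks genes called by edgeR. Ptgis, at −1.06, is the 1 prostaglandin gene in red.

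In the order of levels per length, Hpgd was first in both groups, at 231 ± 110 (SD, n = 9) in Control mice and 171 ± 28.5 (SD, n = 8) in GWI mice. Ptgis was next in Control mice at 8.79 ± 4.06, then Ptgs1 at 6.19, Ptger4 at 4.45, Ptger3 at 2.24 and Ptgs2 at 2.02. Ptges, Ptger1, Ptger2 and Ptgds were below 1 in Control mice. Of these neighbours, the gap from Hpgd to Ptgis was the 1 that exceeded the sum of both SDs. In GWI mice Ptger4 came second at 6.34, ahead of Ptgs1 at 4.51 and Ptgis at 4.24, and the gaps between these 3 were within their spread.

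The same mice were extreme for several of the genes. Control mouse 1 had the highest Control level of 5 of 10 genes (Ptgs1, Ptges, Ptger1, Ptger2 and Ptger4) and the lowest of Hpgd. GWI mouse 5 had the highest GWI level of 5 of 10 (Ptgs1, Ptgds, Ptger1, Ptger2 and Ptger4), and also the lowest of Hpgd. Control mouse 9 was at the other end of the Control group from mouse 1 for 4 genes, lowest for Ptgs1, Ptger1 and Ptger2 and highest for Hpgd. It was also highest for Ptgs2, for which mouse 1 was among the high mice too. Pla2g4c, a cytosolic phospholipase singled out after its values were seen, was at 262 CPM in Control mouse 1 and 40.0 CPM in GWI mouse 5, against medians of 2.08 CPM and 2.17 CPM in the groups.

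The 250 bases before the RefSeq starts of Ptgs1, Ptger2 and Ptger4, which peaked in the same mice, are shown, with Ptgs2 for contrast. Control mouse 1 and GWI mouse 5 had the highest summed fibroblast markers of their groups (1030 and 888 CPM). They were also highest for summed enteric neuron markers (353 and 239 CPM). Their summed smooth muscle markers were 19944 and 11832 CPM, and their summed epithelium markers 28464 and 33011 CPM. The part of tissue make-up in the shared peaks was not tested, and nothing about regulation is read from the sequences. The RefSeq start of Ptger2 lies upstream of its GENCODE start. RefSeq promoters (GRCm38.p6) matched 8 of the 10 genes, with none for Ptgis and Ptger1. Short motifs were searched on both strands and set against 32851 promoters of the same length. The letters TATAAA were present in 12.4% of those promoters, the letters GGGCGG in 32.7%, the letters TGACG in 17.8% and the letters CACGTG in 6.02%. GGGCGG was found 1 time for Ptgs2 and 4 times for Ptger4, where 2 matches overlap, and it was absent from Ptgs1 and Ptger2; the other motifs were not in these 4 windows. Capitals mark GGGCGG or its reverse complement. The sequences are chr2:36230176-36230425 (plus strand), chr14:44987861-44988110 (plus), chr15:5244188-5244437 (minus) and chr1:150099781-150100030 (plus), in this order.
Ptgs1: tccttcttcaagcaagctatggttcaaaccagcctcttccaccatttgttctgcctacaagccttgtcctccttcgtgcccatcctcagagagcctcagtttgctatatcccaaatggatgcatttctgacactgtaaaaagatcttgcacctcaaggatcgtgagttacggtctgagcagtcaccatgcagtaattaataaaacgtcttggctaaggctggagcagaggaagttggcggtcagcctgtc
Ptger2: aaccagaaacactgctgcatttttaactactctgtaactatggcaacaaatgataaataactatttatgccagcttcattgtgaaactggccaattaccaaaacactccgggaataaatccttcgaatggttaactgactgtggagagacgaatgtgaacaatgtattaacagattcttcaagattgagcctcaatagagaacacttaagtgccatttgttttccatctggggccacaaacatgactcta
Ptger4: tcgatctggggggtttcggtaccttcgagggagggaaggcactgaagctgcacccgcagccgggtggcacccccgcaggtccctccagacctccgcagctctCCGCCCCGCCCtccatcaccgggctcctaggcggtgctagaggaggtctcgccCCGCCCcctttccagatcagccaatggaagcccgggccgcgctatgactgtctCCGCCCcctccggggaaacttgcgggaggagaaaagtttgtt
Ptgs2: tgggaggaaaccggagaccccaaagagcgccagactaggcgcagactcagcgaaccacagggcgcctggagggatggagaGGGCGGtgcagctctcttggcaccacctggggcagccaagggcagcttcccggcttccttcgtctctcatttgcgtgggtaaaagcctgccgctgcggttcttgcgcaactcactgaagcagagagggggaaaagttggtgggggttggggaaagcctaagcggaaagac

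The other genes of eicosanoid metabolism give the surroundings of these 10. Of 49 listed, 41 were tested, 3 were called higher and 5 lower; log2 fold changes had a median of −0.05, with 21 of 41 negative, and this count too was not above the 26.8% background. Upstream of the cyclooxygenases, the secreted phospholipase Pla2g3 rose from 11.5 ± 5.51 CPM (SD, n = 9) to 33.0 ± 14.4 CPM (SD, n = 8), a log2 fold change of 1.52 with an adjusted p-value of 0.00193 in edgeR, and 5 of 8 GWI mice were above every Control mouse. It was the 1 called gene among 10 tested phospholipases.

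Downstream, 3 of 8 other prostanoid synthases and reductases were called lower and 0 higher by edgeR, with 2 higher at an unadjusted p-value under 0.05, 1 by DESeq2 and 1 by limma-voom. Over all tested genes, edgeR called 13.5% lower and 13.4% higher. DESeq2 called 2198 of 15179 genes higher and limma-voom 3911 of 14146. Ptges3, a co-chaperone with prostaglandin E synthase activity, fell from 135 ± 24.5 CPM (SD, n = 9) to 96.3 ± 7.99 CPM (SD, n = 8), a log2 fold change of −0.49 (adjusted p = 0.00459, edgeR). Hpgds had a log2 fold change of −0.71 (adjusted p = 0.0189, edgeR) and Akr1b3, an aldose reductase that can make prostaglandin F2 alpha, −0.32 (adjusted p = 0.0168, edgeR). With the replicate block, Hpgds was at −0.53 (adjusted p = 0.0632, edgeR) and Akr1b3 at −0.27 (adjusted p = 0.0695, edgeR), so both calls were lost. For Akr1b3, 5 of 8 GWI mice were below every Control mouse.

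Among other prostanoid receptors, 2 of 3 tested were called lower, beside 13.5% of all tested genes, and nothing is read from shares of lists this short. Ptgir, the receptor of prostacyclin, had a log2 fold change of −0.93 (adjusted p = 0.0430, edgeR), and Ptgfr, the receptor of prostaglandin F2 alpha, −0.97 (adjusted p = 0.0441, edgeR). Both were low, at 3.67 ± 2.07 CPM and 5.75 ± 3.33 CPM in Control mice (SD, n = 9), and each call was kept in 6 of 17 fits that left out 1 mouse. Neither was called with the replicate block (adjusted p = 0.0741 for Ptgir and 0.159 for Ptgfr, edgeR). With the smooth muscle covariate, Ptgir was at −0.30 with an adjusted p-value of 0.469, while Ptgfr was at −0.92, close to its value without the covariate, with an adjusted p-value of 0.0720.

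In the branches that bypass cyclooxygenase, Lta4h, which makes leukotriene B4, rose from 74.4 ± 7.12 CPM (SD, n = 9) to 91.8 ± 9.55 CPM (SD, n = 8), a log2 fold change of 0.30 (adjusted p = 0.0120, edgeR). Cyp2c55, a cytochrome P450 of the colon that oxidises arachidonic acid, rose from 4095 ± 1069 CPM (SD, n = 9) to 6503 ± 1407 CPM (SD, n = 8), a log2 fold change of 0.67 (adjusted p = 0.0107, edgeR). For each gene, 6 of 8 GWI mice were above every Control mouse. Neither was called with the smooth muscle covariate, where Lta4h was at 0.17 (adjusted p = 0.0882) and Cyp2c55 at 0.45 (adjusted p = 0.0564). Lta4h also lost its call with upper-quartile factors, at 0.21 (adjusted p = 0.0668), and with the replicate block, at 0.31 (adjusted p = 0.0550). Of 11 colon epithelium markers, 4 were called higher, beside 13.4% of all tested genes. At an unadjusted p-value under 0.05, 7 were higher, and DESeq2 called 6 and limma-voom 8 higher. The count called lower was 0 by each of these. Over all genes, DESeq2 called 2198 of 15179 higher and limma-voom 3911 of 14146. The part of the epithelium markers in these results was not tested.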

How the data were processed

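Colon RNA of 9 Control and 8 GWI mice was measured by poly(A) RNA sequencing. The authors trimmed reads with Trimmomatic 0.36, aligned them to GRCm38 with STAR 2.5.2b and counted reads per gene with featureCounts. They deposited these raw counts without normalization. The annotation release and strand setting were not given in the sources used here. Overlapping genes on opposite strands are therefore uncertain.

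The members and lists were chosen with earlier results of these data known. Counts of all genes were filtered with filterByExpr and scaled by TMM, and fitted with edgeR 4.0.16 (robust quasi-likelihood, R 4.3.3) without covariates; p-values were adjusted by Benjamini and Hochberg over 14146 genes. CPM uses TMM-scaled library sizes. Levels per length use merged exons of GENCODE M21. Correlations were tested with 2-sided permutation tests, exact within groups and with 100000 resamples over all mice. Likeness to Ptgis used log2 CPM with a prior count of 2. Named genes were all members, every called gene of the wider list, the 3 genes most like each called member, and marker lists by count. The fit was tested on simulated data.

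Alternatives were DESeq2 1.42.0 size factors, upper-quartile factors, library size alone, the DESeq2 Wald test, limma-voom 3.58.1, no robust estimation, no filter, at least 10 counts in every mouse, a replicate block, a smooth muscle covariate, another threshold and each mouse left out. Other marker lists, as called higher and lower by edgeR, were macrophage (0 and 1 of 8 tested), enteric glia (0 and 1 of 4), enteric neuron (0 and 0 of 6), tuft cell (0 and 0 of 5), adipocyte (1 and 0 of 5), mesothelium (0 and 0 of 5), small intestine (1 and 2 of 4), T cell (0 and 0 of 4) and B cell (0 and 0 of 1); of 8 mast cell genes 0 passed the filter. At an unadjusted p-value under 0.05, 1 tuft cell gene was higher and 0 enteric neuron, mesothelium, T cell or B cell genes differed. DESeq2 called 0 genes of these 5 lists, and limma-voom called 2 tuft cell genes higher and 5 enteric neuron genes lower. Of all 14146 genes, edgeR called 13.4% higher and 13.5% lower, and limma-voom called 3911 higher and 4180 lower. DESeq2 called 30.5% of the genes it tested.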

Additional observations from a re-analysis of the deposited data

Results flagged for a closer look

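Single mice lay far from the rest of their group for some genes. In Control mouse 1, Ptges was at 5.94 CPM with the next Control mouse at 3.40 CPM, Ptger4 at 62.7 CPM with the next at 35.3 CPM, and Pla2g3 at 24.8 CPM with the next at 14.6 CPM. In GWI mouse 5, Ptgs1 was at 31.1 CPM with the next GWI mouse at 19.3 CPM, Ptger2 at 3.09 CPM with the next at 1.55 CPM, and Ptger4 at 78.2 CPM with the next at 49.6 CPM. Control mouse 9 had 804 CPM of Hpgd, with the next Control mouse at 502 CPM. The 10 prostaglandin genes and the 8 called genes of the wider list gave 36 groups, of which 7 had such a mouse by Dixon's criterion, where chance gives about 1.8 (5%). These groups share mice, so the 7 are not independent. All 7 were high values. The 5% holds for normally distributed values, while untransformed CPM were used, so the 7 are not read as an excess. Pla2g4c was not among the 36 groups, because it was singled out for its high mice.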

How the results depend on the processing

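Of 269 refits of single prostaglandin genes, 253 kept direction and side of the threshold, 11 passed it in the same direction, 2 lost it and 3 turned. Ptgis was called in 17 of 17 fits that left out 1 mouse, from −1.23 to −0.89 with adjusted p of 0.00431 to 0.0250, and adjusted p over all its alternatives ran from 0.000137 to 0.101. The smooth muscle covariate gave −0.40 for Ptgis, and turned Ptgs1 to 0.11, Ptger2 to 0.29 and Ptger3 to 0.13; it called Ptger4 (0.80), Ptger1 (0.49) and Hpgd (−0.75), 3 of 9 where 37.6% of all genes were called. Limma-voom called Ptgis, Ptgs1 (−0.68), Ptger2 (−0.74) and Ptger4 (0.59), 4 of 9 against 57.2% of all genes. With 1 mouse left out, Ptgs1 ran from −0.62 (called, without GWI mouse 5) to −0.29, Ptgs2 from −0.90 to −0.48, and Ptger4 from 0.32 to 0.74; 34.2% of all genes were called without Control mouse 1. Chosen after seeing the data, leaving out Control mice 1 and 9, with the most Pla2g4c and the highest mitochondrial share, called Ptges (0.49) and Ptger4 (0.74), with 39.3% of all genes called, and gave −0.34 for Ptgs2; leaving out Control mice 6 and 7, also chosen then for their small intestine markers, gave 1 lower. The cause was not tested.

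Prostaglandin genes called higher numbered 0 in the report, 1 by limma-voom, 2 with the covariate, 2 without Control mice 1 and 9, and 0 to 2 with 1 mouse left out, 2 being without Control mouse 1. Those called lower numbered 1, then 3 by limma-voom, 0 with the replicate block and 1 to 2 with 1 mouse left out; with the covariate the 1 was Hpgd. Wider-list genes called higher numbered 3, then 2 with upper-quartile factors, 8 by limma-voom, 6 with the covariate, 7 without Control mice 1 and 9, 1 at an unadjusted p-value under 0.05 with an absolute log2 fold change over 1, and 3 to 6 with 1 mouse left out, being 6 without Control mouse 1 and 5 without Control mouse 2. Those called lower numbered 5, then 8 with upper-quartile factors, 11 by limma-voom, 3 without a filter, 1 with the block, 9 without Control mice 1 and 9, 0 at the unadjusted threshold, and 3 to 8 with 1 mouse left out, being 8 without Control mouse 1 and 3 without Control mouse 3 or 6 or GWI mouse 1, 3, 4, 6 or 7. The background moved too. Over all genes, 1903 of 14146 were lower in the main fit, 1674 of 19717 without a filter and 811 of 14146 with the block. Lower genes numbered 2295 of 14080 without Control mouse 1 and 2778 of 14161 without Control mice 1 and 9. Where leaving out 1 mouse gave the lowest wider-list count, they ran from 1309 (without GWI mouse 7) to 1599 (without Control mouse 6). Pla2g4c, at −2.16, turned to 0.63 by limma-voom, 1.31 without Control mouse 1 and 1.25 without Control mice 1 and 9, and was −3.72 without GWI mouse 5, −0.23 by the DESeq2 Wald test, −0.15 with the block and −0.21 with the covariate.

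Over all genes, 1889 were higher and 1903 lower, against 1214 and 2992 with upper-quartile factors and 3911 and 4180 by limma-voom. The groups share 8 replicate numbers, but same-numbered mice did not deviate together (r from −0.506 to 0.115, over 0.1 in 1 of 8 pairs, and 0 of 16 mice correlating best with their own number). The replicate block gave 1407 higher and 811 lower, against 2276 and 2216 in the same 16 mice unblocked (a fit chosen after seeing the data), and Ptgis at −1.07 (adjusted p = 0.0625). With it, Lta4h (0.31, adjusted p = 0.0550), Hpgds (−0.53, 0.0632), Akr1b3 (−0.27, 0.0695), Ptgir (−0.91, 0.0741) and Ptgfr (−0.73, 0.159) were not called either. Without a filter, Ptgir and Ptgfr (adjusted p = 0.0532 and 0.0538) were not called. Counts were low for Ptgds and Ptger2, and the part of this in their results was not tested.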
